A study of Drosophila melanogaster with 6 samples.

Results

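The genes described here are 34 muscle sarcomere genes of *Drosophila melanogaster*: those for the proteins of the contractile filaments, for the proteins that switch, space and anchor them, and for a few proteins that serve them. They were listed by their FlyBase symbols and not by a rule on measured values. Earlier results of these data were known when the list was made. All 34 were among the 17869 genes counted, and 31 of them had enough reads to be tested, of 11422 genes tested in all. RNA-seq was used to compare whole second-instar (L2) larvae in which pyruvate kinase, the enzyme of the last step of glycolysis, was lost with larvae that kept 1 working copy of its gene, *Pyk*. The *Pyk 23/31* mutants carried 2 different small deletions made with CRISPR/Cas9, *Pyk 23* and *Pyk 31*, each of which shifts the reading frame in the first coding exon. The *Pyk 23/+* controls carried *Pyk 23* beside a wild-type copy, so that both genotypes shared this allele. Each genotype had 3 samples, which the study calls biological replicates, and the p-values below measure only the spread between these samples. The RNA came from entire animals of both sexes mixed, the mutants die in the middle of this instar, and an age in hours is not stated for the RNA samples. Muscle is therefore 1 tissue among many in each library.

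A sarcomere is the repeating unit of a striated muscle fibre. Thick filaments of myosin pull on thin filaments of actin, and the pull is switched on when calcium binds troponin C, which shifts the other troponins and tropomyosin on the actin filament. The thin filaments are held at the Z-disc, the thick filaments are joined at the M-line, and giant elastic proteins run between the lines. Larval body wall muscles move the animal, and they use a set of isoforms that differs in part from that of the flight and leg muscles of the adult.

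Among the sarcomere genes, 14 were modestly lower in the mutants. The edgeR quasi-likelihood test, at an adjusted p of at most 0.05, left 0 of the 31 tested higher and 17 without a call. Over all 11422 genes tested, 26.0% were lower and 22.2% were higher by the same rule, 48.2% in either direction. In whole animals, fewer muscle cells and less RNA per muscle cell cannot be told apart. Levels are also relative to each library, so neither can be told apart from more RNA of other tissues. The largest falls among the abundant members were in *Mlp60A*, a muscle LIM protein, and *Act87E*, a muscle actin, at 1.54-fold and 1.53-fold. None reached the 2-fold change that the study set as its threshold, a change that 2.25% of all genes tested reached downward and 5.25% upward. At an unadjusted p under 0.05 the counts were 1 higher and 15 lower, with 0 past 2-fold in either direction. DESeq2 called 10 lower and 0 higher, and limma-voom called 14 lower and 0 higher. The split of calls moved with the scaling: when counts were divided by library totals alone, without TMM factors, 8 members were lower and 1 was higher, and 22.1% of all genes were lower and 25.7% higher. With an offset for exon length, set out further below, 18 members were lower and 0 higher, and 9 of the 14 calls were among the 18.

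The median log2 fold change of the 31 genes was -0.12, against 0.015 for all genes tested, and the values ran from -0.68 to 0.88. It was below 0 for 23 of the genes and above 0 for 8. In 19 of the 31, every mutant library was below every control library, where 31.5% of all genes tested showed this order. In 1 of the 31, *Strn-Mlck*, every mutant was above every control, against 29.4% of all genes, and the genotypes were apart in either order in 60.9% of all genes. Measured against the mean of the controls, the median of the 31 genes on the log2 scale was -0.086, -0.15 and -0.096 in mutants 1, 2 and 3, and 0.020, -0.014 and -0.014 in controls 1, 2 and 3. Mutant 2 was the lowest by this median, and it had 3 of the 31 genes above the control mean, against 10 and 9 in mutants 1 and 3.

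**Figure D1:**
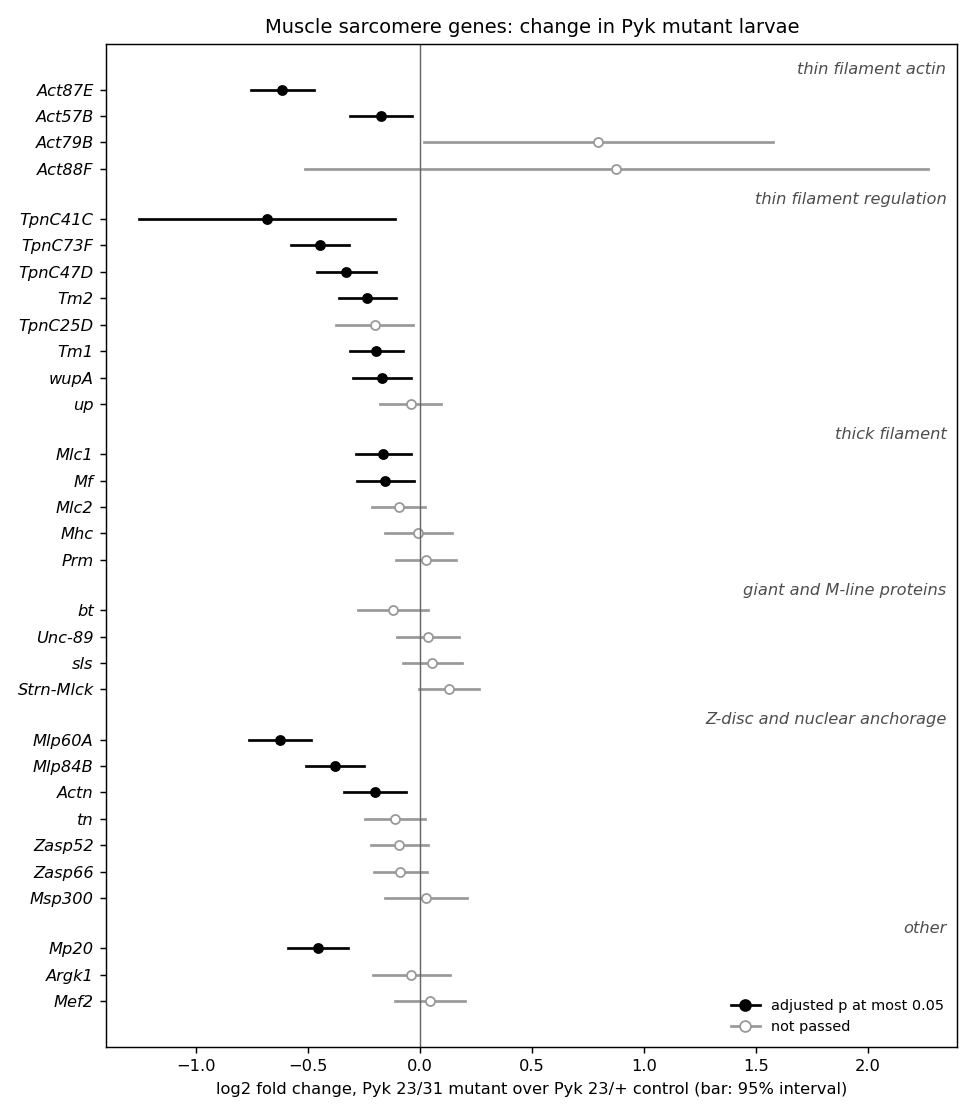
Log2 fold change of the 31 sarcomere genes tested, *Pyk 23/31* mutants over *Pyk 23/+* controls (x axis), grouped by role; points are estimates, bars are 95% intervals and black marks the 14 genes with an adjusted p of at most 0.05. All 14 black points lie left of 0, and the giant proteins *sls*, *Unc-89* and *bt* and the myosin heavy chain *Mhc* have intervals that include 0.

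As a sum, the 34 genes held 8.29%, 7.62% and 8.07% of the counts in the mutants and 8.50%, 8.45% and 8.28% in the controls, where mutant 1 reached the lowest control. In CPM, the count of a gene scaled to the library's TMM-adjusted total, the sums were 81825, 74330.3 and 79109 in the mutants and 87342, 85449.9 and 84550.3 in the controls, and on this scale the genotypes did not overlap. By role, the mean sums were 18659 CPM in mutants and 21192 CPM in controls for the actins, 14001 and 15769 CPM for thin filament regulation, 29037 and 30260.3 CPM for the thick filament, and 6033 and 7068 CPM for the Z-disc and nuclear anchorage. The giant and M-line proteins summed to 6278 ± 363 CPM in mutants and 6546 ± 335 CPM in controls, a difference within the spread.

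Every mutant library was deeper than every control library. The libraries held 12499172 to 16029304 assigned read pairs in mutants and 11249487 to 11784491 in controls. Unmapped pairs were 4.73% to 5.73% of each mutant library and 6.66% to 7.91% of each control library. At these depths 3 counts correspond to 0.185 to 0.272 CPM, which is the floor used here for a gene without counts and covers counting error only. *Pyk* itself was at 53.7, 44.0 and 57.7 CPM in the mutants and 465, 442 and 419 CPM in the controls, 8.53-fold lower, in the direction of the labels in every library. Marker genes of muscle, nerve, hemocyte, fat body, midgut and heart were all detected. Of the 2 heart markers, *tin* had 13 counts in all and *Hand* 252, so the heart sum below was almost all *Hand*. The 8 muscle markers, all of them members, summed to 52059 ± 2899 CPM in mutants and 56498 ± 949 CPM in controls. The sums of the other markers moved in both directions: 5826 ± 369 CPM in mutants and 7755 ± 211 CPM in controls for fat body, 249 ± 25.0 and 148 ± 3.52 CPM for midgut, 395 ± 37.8 and 303 ± 23.8 CPM for nerve, 4.39 ± 0.996 and 2.24 ± 0.417 CPM for heart, and 173 ± 12.9 and 173 ± 5.86 CPM for hemocytes. Some sums joined markers that differed in direction. The fat body sum was mostly *apolpp*, which was lower, as were *Apoltp* and *plin1*, while *AkhR* was higher (log2 fold change of 0.66, adjusted p = 0.016 in edgeR). Among the hemocyte markers *Hml* was lower, at -0.20, and *srp* higher, at 0.32 (adjusted p of 0.036 and 0.0048), and the others did not pass. The part of a changed tissue composition in the results below was not tested.

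A pair of muscle actins carried almost all of the sarcomeric actin RNA, and both were lower in mutants. *Act57B* (chromosome arm 2R, 20944021 to 20946431, plus strand, in the BDGP6.54 annotation) was at 19535, 17208 and 18341 CPM in mutants and 21277, 20690.2 and 20248 CPM in controls. Every mutant was below every control, and the log2 fold change was -0.18 with an SE of 0.062 (adjusted p = 0.039 in edgeR). The call was near the threshold and was kept in 8 of the 14 alternative settings tried, with an adjusted p from 0.019 to 0.14, and was lost with the length offset (-0.032, adjusted p = 0.65). *Act87E* (3R, 13425983 to 13428375, plus strand) was at 285, 308 and 294 CPM in mutants and 474, 441 and 443 CPM in controls. The gap between the genotypes was far wider than the spread within them, at a log2 fold change of -0.61 with an SE of 0.062 (adjusted p = 6.4e-05), and all 14 alternatives kept the call. Per kilobase of exon (RPKM), *Act57B* made up 98.6% ± 0.142 of the RNA of the 4 sarcomeric actins in mutants and 98.1% ± 0.0410 in controls, and *Act87E* 1.38% ± 0.141 and 1.86% ± 0.0409, without overlap. The actins of the adult muscles were low, and *Act88F* was close to the floor. *Act79B*, an actin of adult leg and other tubular muscles, was at 1.11, 1.64 and 1.92 CPM in mutants and 0.885, 0.601 and 1.18 CPM in controls, and the ranges overlapped (log2 fold change of 0.80 with an SE of 0.35, adjusted p = 0.083). *Act88F*, the actin of the indirect flight muscles, was at 0.431, 0.312 and 0.569 CPM in mutants and 0.177, 0.429 and 0.0908 CPM in controls, from 27 counts in all, which is too few to tell the genotypes apart (adjusted p = 0.27). Actin genes share long stretches of coding sequence, and pairs that map to several places were not counted for any of them. Such pairs were 3.97% to 4.11% of each mutant library and 4.47% to 4.72% of each control library. The levels of the actins are therefore less certain than those of the other members.

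Proteins that switch the thin filament gave the most calls, 6 lower of 8 tested, where 26.0% of all genes tested were lower. This rank did not hold with the length offset. Of these genes only *Tm1*, *Tm2* and *TpnC73F* were then lower. In the Z-disc list *Zasp52*, *Actn*, *Msp300*, *tn*, *Mlp60A* and *Mlp84B* were. Troponin C, the calcium sensor, is encoded by 5 genes, of which *TpnC47D* and *TpnC73F* dominated these larvae. *TpnC47D* (2R, 11273845 to 11275286, minus strand) was at 924, 949.8 and 892 CPM in mutants and 1216, 1112 and 1145 CPM in controls, a log2 fold change of -0.33 with an SE of 0.059 (adjusted p = 0.0015). *TpnC73F* (3L, 17046063 to 17048390, plus strand) was at 634, 593 and 589.7 CPM in mutants and 849, 808 and 814 CPM in controls, a log2 fold change of -0.44 with an SE of 0.058 (adjusted p = 0.00024). Neither gene overlapped between genotypes, and both calls were kept in the 14 alternatives other than the length offset. With that offset *TpnC47D* lost its call, at a log2 fold change of -0.022 (adjusted p = 0.73), and *TpnC73F* kept it at -0.18 (adjusted p = 0.016). *TpnC25D*, a further larval isoform, was at 69.3, 80.0 and 77.3 CPM in mutants and 89.7, 81.7 and 89.1 CPM in controls, a log2 fold change of -0.20 with an SE of 0.077 that missed the threshold (adjusted p = 0.053). *TpnC41C*, known from adult muscle, was at 1.11, 1.17 and 1.35 CPM in mutants and 1.77, 1.72 and 2.36 CPM in controls. Its log2 fold change was -0.68 with an SE of 0.26 (adjusted p = 0.049), and the call was lost in 12 of the 14 alternatives, including each one that left out a library, so it is weakly supported. *TpnC4*, the isoform of the flight muscles, had 3, 1 and 3 counts in mutants and 0, 0 and 1 in controls and was not tested. Summed per kilobase, the troponin C genes were at 1798 ± 44.3 RPKM in mutants and 2312 ± 90.4 RPKM in controls (SD, n = 3 each). Within this sum *TpnC47D* made up 64.8% ± 0.887 in mutants and 63.3% ± 0.428 in controls, and *TpnC73F* 31.8% ± 1.09 and 33.7% ± 0.453, so the order of the isoforms was the same in both genotypes.

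Of the partners of troponin C, tropomyosin and troponin I were lower. *Tm1* and *Tm2*, neighbouring genes on 3R that encode tropomyosin, the strand that covers the myosin sites on actin, both fell. *Tm1* was at 2711, 2559 and 2625 CPM in mutants and 3058, 2966 and 3017 CPM in controls (log2 fold change of -0.20 with an SE of 0.053, adjusted p = 0.013). *Tm2* was at 2683, 2437 and 2603 CPM in mutants and 3033, 3017 and 3037 CPM in controls (log2 fold change of -0.23 with an SE of 0.056, adjusted p = 0.0069). Both tropomyosin calls were kept in all 14 alternatives and with the length offset, at -0.46 for *Tm1* and -0.20 for *Tm2*. *Tm1* also gives rise to tropomyosins of other cells, and these counts per gene do not separate them. *wupA*, which encodes troponin I, was at 2664, 2580.0 and 2831 CPM in mutants and 3108, 3002 and 2969 CPM in controls, with a log2 fold change of -0.17 with an SE of 0.057 (adjusted p = 0.034), kept in 8 of 14 alternatives and lost with the length offset. *up*, which encodes troponin T, was at 4677, 4168 and 4651 CPM in mutants and 4628, 4643 and 4615 CPM in controls and did not pass (log2 fold change of -0.041, 95% interval -0.18 to 0.095, adjusted p = 0.60). Its mutants overlapped the controls, with mutant 2 alone below them. The ratio of *up* to *Tm2* per kilobase was 1.80 ± 0.0395 in mutants and 1.58 ± 0.0103 in controls, and the ratio of *wupA* to *up* was 0.766 ± 0.0334 and 0.836 ± 0.0197, both without overlap between genotypes.

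**Figure D2:**
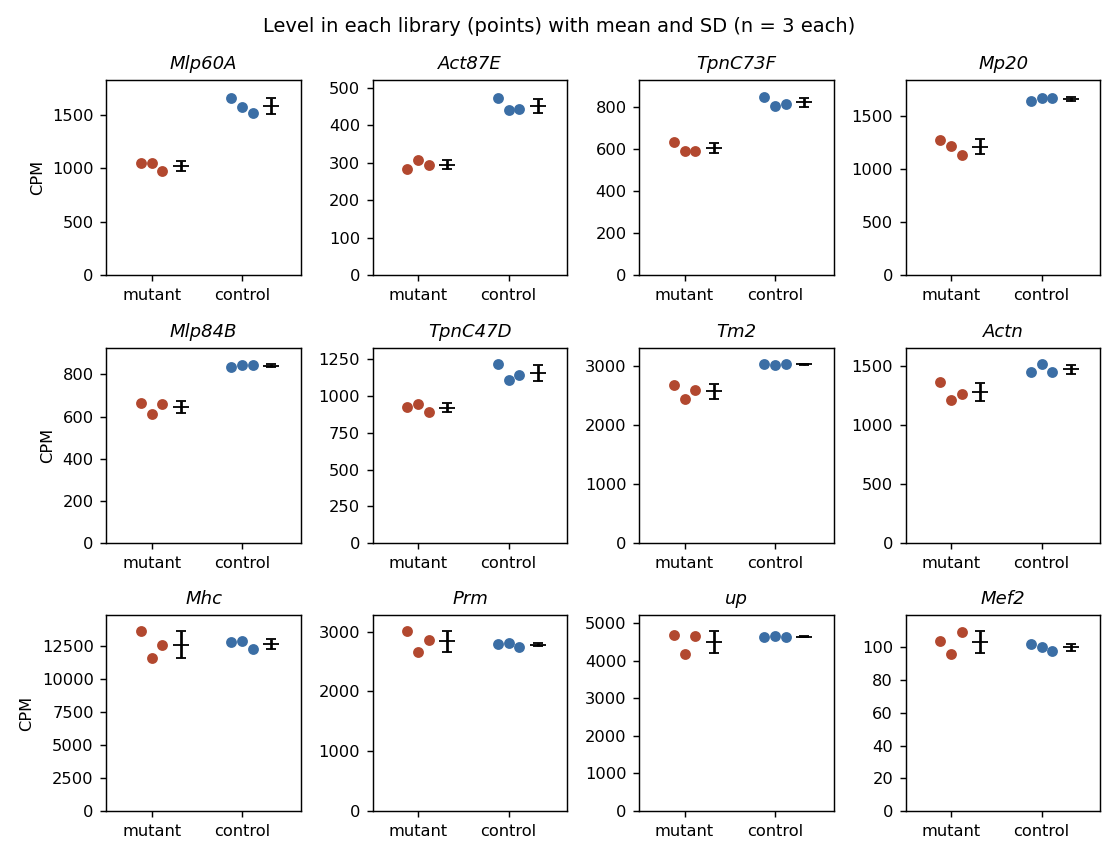
Level in CPM (y axes start at 0) of 12 sarcomere genes in each library, mutants left and controls right, with the mean and SD of 3 libraries beside the points. In *Mlp60A*, *Act87E*, *TpnC73F*, *Mp20*, *Mlp84B*, *TpnC47D*, *Tm2* and *Actn* every mutant lies below every control, while in *Mhc*, *Prm*, *up* and *Mef2* the genotypes overlap.

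The thick filament gave 2 calls of 5 tested. *Mhc*, the only gene for muscle myosin heavy chain in the fly, was at 13636, 11622 and 12570.2 CPM in mutants and 12844, 12914 and 12254 CPM in controls. The genotypes overlapped, the log2 fold change was -0.0070, and its 95% interval ran from -0.16 to 0.14 (adjusted p = 0.94 in edgeR), though an offset for exon length, described below, made it a call. *Mlc1*, the essential light chain, was at 3552, 3399.9 and 3623 CPM in mutants and 4057, 3857 and 3927 CPM in controls, a log2 fold change of -0.16 with an SE of 0.055 (adjusted p = 0.032), and the call was kept in 8 of 14 alternatives and lost with the length offset. *Mlc2*, the regulatory light chain, had a log2 fold change of -0.094 and did not pass (adjusted p = 0.17), although its 3 mutants, at 7247 to 7687 CPM, were all below its 3 controls, at 7928 to 8060.4 CPM. *Mf*, which encodes myofilin, a protein of the filament core, fell by 0.15 on the log2 scale (adjusted p = 0.046), a call kept in 4 of 14 alternatives. *Prm*, which encodes paramyosin of the same core, was at 2838 ± 175 CPM in mutants and 2784 ± 31.8 CPM in controls and did not pass (adjusted p = 0.73). *fln*, which encodes the flight muscle protein flightin, had 2 counts in all, both in mutants, and was not tested. Reads on the strand opposite to *fln* numbered 43, and an antisense gene, *asRNA:CR45161*, shares exonic bases with it.

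Since *Mhc* did not pass without that offset, each other member could be read against it within a library, a ratio on which the scaling between libraries has no bearing. Of 30 members compared in this way, the ratio to *Mhc* was lower in every mutant than in every control for 15 and higher in every mutant for 0. Of the 11421 other genes tested, 28.2% had a lower ratio to *Mhc* in every mutant and 26.8% a higher one. The ratio for *Act57B* was 1.46 ± 0.0241 in mutants and 1.64 ± 0.0303 in controls, and that for *Mlp60A* 0.0817 ± 0.00769 and 0.125 ± 0.00380. With 3 samples against 3, an exact permutation test cannot give a p below 0.1. An order without overlap fixes its p at 0.1, so the test adds nothing to the count of 15. *Mhc* was chosen as the divisor after its values had been seen, and with 9.06 kb of exon it is longer than most members, so the ratio does carry the relation with exon length described below.

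The giant and M-line proteins gave 0 calls among 4 tested, with 0 at an unadjusted p under 0.05 in edgeR and 1 higher, *Strn-Mlck*, at that level in DESeq2 and in limma-voom. *bt* encodes the giant protein projectin and was at 4035 ± 275 CPM in mutants and 4389 ± 267 CPM in controls (log2 fold change of -0.12, adjusted p = 0.17). *sls*, for the titin-like protein of the Z-disc and I-band, was at 1295 ± 57.7 CPM in mutants and 1246 ± 47.1 CPM in controls, a log2 fold change of 0.056. *Unc-89*, the gene for the M-line protein obscurin, which the annotation lists as *Obsc*, was at 741 ± 42.7 and 722 ± 22.2 CPM, a log2 fold change of 0.036. *Strn-Mlck*, which encodes stretchin and a myosin light chain kinase, was the member with every mutant above every control, at 211, 198 and 212 CPM in mutants and 191, 187 and 190.1 CPM in controls. Its log2 fold change of 0.13 did not pass (95% interval -0.0032 to 0.26, adjusted p = 0.096), but with library totals as the scaling it was called higher, at a log2 fold change of 0.19 and an adjusted p of 0.024. With the length offset 3 of the 4 were called lower, *bt* at -0.40, *Unc-89* at -0.24 and *sls* at -0.20 (adjusted p of 0.00073, 0.018 and 0.025), and *Strn-Mlck* was at -0.14 (adjusted p = 0.10).

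In the list for the Z-disc and nuclear anchorage, the muscle LIM proteins stood out. *Mlp60A* (2R, 24074602 to 24078223, plus strand), one of 2 muscle LIM proteins of the fly, was at 1053, 1053 and 973 CPM in mutants and 1659.6, 1573 and 1519 CPM in controls, a log2 fold change of -0.63 with an SE of 0.062 (adjusted p = 5.6e-05). The other, *Mlp84B* (3R, 7112850 to 7117732, minus strand), was at 665, 614 and 660.2 CPM in mutants and 834, 845 and 843 CPM in controls, a log2 fold change of -0.38 with an SE of 0.057 (adjusted p = 0.00053). Both were kept in all 14 alternatives. *Actn*, which encodes alpha-actinin, the crosslinker of thin filaments at the Z-disc, was at 1361, 1208 and 1262 CPM in mutants and 1445, 1515 and 1443 CPM in controls, a log2 fold change of -0.20 with an SE of 0.062 (adjusted p = 0.023). The *Actn* call was kept in 11 of 14 alternatives, and its exons overlap those of *usp* on the same strand. *Zasp52* and *Zasp66*, PDZ domain proteins that bind alpha-actinin, had log2 fold changes of -0.091 and -0.089, and *tn*, the TRIM protein thin, had -0.11. None of these 3 passed (adjusted p of 0.21, 0.19 and 0.15), though in each every mutant was below every control. With the length offset *Zasp52* and *tn* were called lower, at -0.36 and -0.32 (adjusted p of 0.0010 and 0.0025). *Msp300*, the nesprin that ties muscle nuclei to the Z-disc lattice, was at 1340.4 ± 142 CPM in mutants and 1316 ± 81.4 CPM in controls (adjusted p = 0.81), and with the offset it was called lower, at -0.22 (adjusted p = 0.0033). *Zasp67* had 2 counts in mutants and 3 in controls on its own strand, against 33 on the opposite one, and was not tested.

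Of the last 3 members, 1 fell. *Mp20* (2R, 13246670 to 13248880, plus strand), a calponin-like muscle protein, was at 1279, 1224 and 1139.9 CPM in mutants and 1648, 1673 and 1678 CPM in controls, a log2 fold change of -0.46 with an SE of 0.060 (adjusted p = 0.00025), and the call was kept in all 14 alternatives and, at -0.18, with the length offset. *Mef2*, the transcription factor that drives many muscle genes, was at 104, 96.1 and 109.8 CPM in mutants and 102, 100.4 and 97.7 CPM in controls. The 2 ranges overlapped and the 95% interval of the log2 fold change, 0.045, ran from -0.11 to 0.20 (adjusted p = 0.62), but it was called lower with the length offset. *Argk1*, the arginine kinase that buffers ATP in muscle and other tissues, was at 3097 ± 289 CPM in mutants and 3179 ± 174 CPM in controls, a log2 fold change of -0.038 (adjusted p = 0.70).

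**Figure D3:**
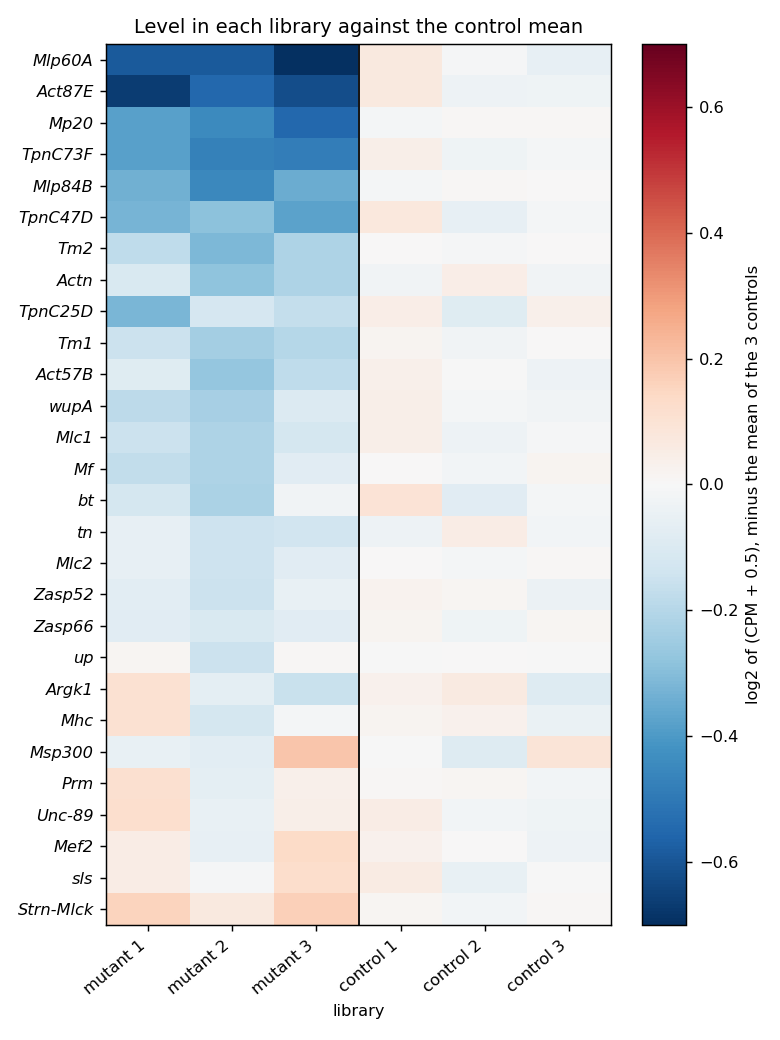
Level of the 28 sarcomere genes with a mean of at least 50 CPM in each of the 6 libraries (columns, mutants left), as log2 of CPM plus 0.5 minus the mean of the 3 controls; blue is lower and red higher, and rows run from the lowest to the highest mean over the mutants. *Mlp60A* and *Act87E* are deepest blue in all 3 mutants, at -0.55 to -0.70, and in *Mhc*, *up* and *Prm* mutant 2 is the lowest of the mutants.

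Set in order by level per kilobase, the same 4 members led in both genotypes. *Act57B* came first, at 10650.3 RPKM in mutants and 12029 RPKM in controls, followed by *Mlc2* at 3282 and 3502 RPKM, *Mlc1* at 2493 and 2791 RPKM and *up* at 1778 and 1829.5 RPKM. *Mhc*, at 1392 RPKM in mutants and 1399 RPKM in controls, lay among *wupA*, *Mp20* and *TpnC47D*, whose levels in controls were 1530.1, 1758 and 1464 RPKM and in mutants 1361, 1281 and 1165 RPKM. *Mhc* stood above these 3 by the mean in mutants and below them by the mean in controls, but not library by library. *wupA* was above *Mhc* in mutants 2 and 3, *Mp20* was above it in mutant 2, and *TpnC47D* was below it in control 2. The giant genes were low on this scale because their exons are long: *sls* had 21.9 RPKM in mutants and 21.1 RPKM in controls over 59.0 kb of exon, and *Msp300* had 19.2 and 18.9 RPKM over 69.8 kb.

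The fold change of the members followed the length of their exons, and so did that of all genes. Across 3094 genes with a mean of at least 50 CPM, the log2 fold change was higher for longer exons (Spearman's rho of 0.28, a description across genes, which are not independent replicates). The median was -0.26 for 435 genes of up to 1 kb, -0.22 for 801 genes of 1 to 2 kb, -0.11 for 588 genes of 2 to 3 kb, 0.019 for 596 genes of 3 to 5 kb, 0.15 for 505 genes of 5 to 10 kb and 0.23 for 169 genes over 10 kb. In the shortest of these classes 53.6% of genes were lower by the adjusted p, and in the longest 9.47%. Among the 28 sarcomere genes at this level rho was 0.70. The tilt was seen in every mutant: against the control mean, the median of genes up to 1 kb was -0.23, -0.19 and -0.32 in mutants 1, 2 and 3 and 0.025, -0.025 and -0.012 in controls 1, 2 and 3, and that of genes over 10 kb was 0.21, 0.18 and 0.31 in mutants and -0.0049, -0.020 and 0.025 in controls. The tilt is confounded with genotype, so that a difference in the RNA or the libraries cannot be told apart from a change in the animals.

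Read against genes of their own length class, 21 of these 28 members were below the class median and 7 above it, with a median difference of -0.16. *Mlp60A*, at 2.84 kb, was 0.52 below its class, *Mlp84B* at 3.14 kb 0.40 below, *Act87E* at 1.99 kb 0.39 below, and *Mp20* at 0.948 kb 0.20 below. *Act57B*, *Mlc1*, *wupA*, *TpnC25D*, *up*, *Mlc2* and *Zasp66* were the 7 above, by at most 0.064. Members of the longer classes lay below them as well: *Actn* was 0.35 below the median of genes of 5 to 10 kb, *Tm1* also 0.35 below it, *bt* 0.35 below that of genes over 10 kb, and *Mhc* 0.16 below its class. When the trend with length was removed within each library as an offset in edgeR, a setting chosen after the data had been seen, 18 members were lower and 0 higher, beside 20.2% lower and 23.4% higher of all genes tested. Of the 14 calls, 9 were kept and 5 were lost, those of *Act57B*, *Mlc1*, *wupA*, *TpnC41C* and *TpnC47D*, and 9 were gained, those of *Mhc*, *Prm*, *bt*, *sls*, *Unc-89*, *Zasp52*, *tn*, *Msp300* and *Mef2*. *Mhc* was then at -0.27 (adjusted p = 0.012), *Prm* at -0.16 (adjusted p = 0.041) and *Mef2* at -0.22 (adjusted p = 0.020). Among the calls that were kept, *Tm1*, *Mf* and *Actn* moved down to -0.46, -0.33 and -0.38, and *Mp20* moved up to -0.18. The calls of *Mlp60A*, *Act87E*, *Mlp84B*, *Mp20*, *TpnC73F*, *Tm1* and *Tm2* were kept with this offset as well as in all 14 other alternatives. At this level of expression, 13 of the 28 members were lower (46.4%), where 37.3% of the 3094 genes were lower and 26.6% higher.

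**Figure D4:**
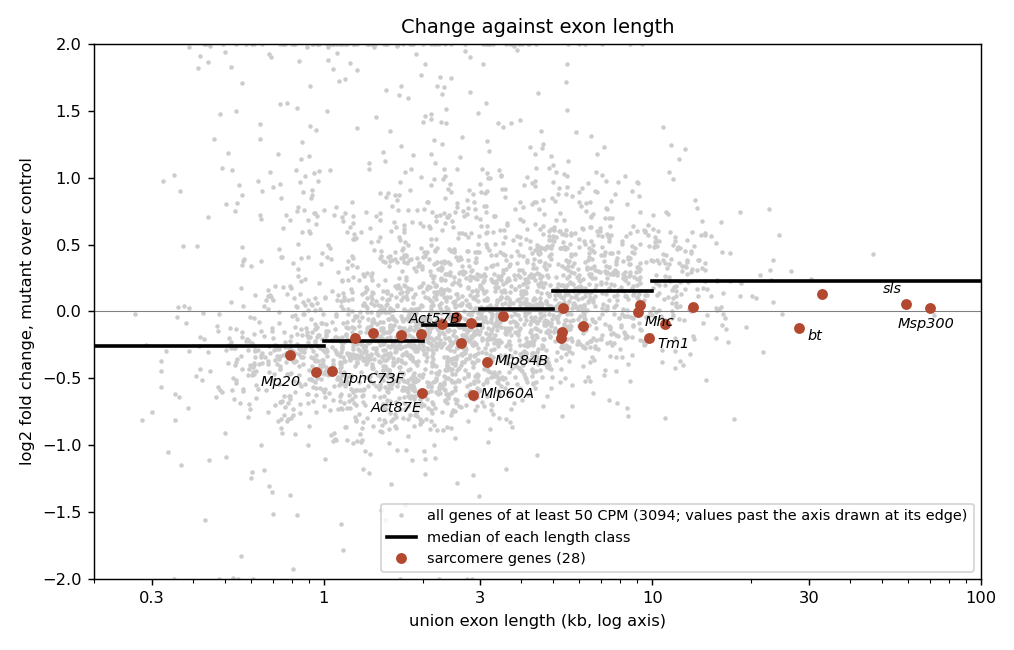
Log2 fold change, mutants over controls (y axis, values past 2 drawn at the edge), against union exon length in kb (log x axis) for 3094 genes with a mean of at least 50 CPM (grey), with the median of each of 6 length classes (black lines) and the 28 sarcomere genes (red). The class medians climb from -0.26 to 0.23, and 21 of the 28 red points lie below the line of their class.

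Genes that work beside the sarcomere did not move as a block. Of 70 such genes tested in 8 lists, 21 were higher in mutants, 15 were lower and 34 did not pass, against 22.2% higher and 26.0% lower over all genes. The balance moved with the scaling, to 28 higher and 10 lower with library totals and to 15 higher and 19 lower with the length offset. In calcium handling, *SERCA*, the pump that returns calcium to the sarcoplasmic reticulum, fell by 0.20 on the log2 scale (adjusted p = 0.025), and *Calx*, the sodium-calcium exchanger, rose by 0.20 (adjusted p = 0.047), a call kept in 6 of 14 alternatives and lost with the length offset. The other 3 genes tested did not pass, the ryanodine receptor *RyR* and the calcium channel *Ca-alpha1D* among them, though *RyR* was called lower with the length offset, at -0.31 (adjusted p = 0.0065). *SclA*, which encodes a regulator of that pump, was listed at 0 in every library, and whether this reflects absent RNA or unassigned read pairs was not tested.

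The glutamate receptors through which motor nerves drive larval muscle changed in opposite directions. The subunits that compete for 1 place in the receptor, *GluRIIA* and *GluRIIB*, were both lower, and *GluRIIB* had the larger fall: 6.22, 4.29 and 5.12 CPM in mutants and 10.8, 11.2 and 7.90 CPM in controls (log2 fold change of -0.93 with an SE of 0.18, adjusted p = 0.0023). *GluRIIA* fell by 0.27 (adjusted p = 0.021). Of the shared subunits, *GluRIID* fell by 0.34 (adjusted p = 0.0080), while *GluRIIC* was higher, at 37.4, 39.3 and 39.1 CPM in mutants and 24.8, 24.0 and 26.2 CPM in controls (log2 fold change of 0.63 with an SE of 0.072, adjusted p = 0.00012). *GluRIIE* and the auxiliary protein *Neto* rose by 0.54 and 0.53 (adjusted p of 0.00095 and 0.0022). All 6 calls were kept with the length offset, and all but that of *GluRIIA* in each of the 14 alternatives. Of the 6 nerve markers summed above, *nSyb*, *brp*, *Syt1* and *Rdl* were higher in mutants by 0.28 to 0.60, *elav* did not pass (log2 fold change of 0.036, adjusted p = 0.76), and *repo*, a marker of glia, was lower (log2 fold change of -1.57, adjusted p = 0.00032). Their part here was not tested.

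In the list for muscle attachment, 6 of 14 genes were higher and 2 lower. The integrin subunit *mew* rose by 0.60 (adjusted p = 0.00015), *rhea*, which encodes talin, by 0.33 (adjusted p = 0.0024) and *Lrt*, a tendon protein, by 0.38 (adjusted p = 0.015). *Vinc*, which encodes vinculin, fell by 0.36 (adjusted p = 0.0015) and *Tsp*, which encodes thrombospondin, by 0.26 (adjusted p = 0.016). In the dystrophin complex 4 of 7 genes were higher and 0 lower by all 3 tools, with 0 lower at an unadjusted p under 0.05: *Dys*, *Dg* and *Dyb* rose by 0.28, 0.28 and 0.27 (adjusted p of 0.0067, 0.010 and 0.015). *rhea*, *Dys*, *Dg* and *Dyb* have 11.1, 21.2, 6.53 and 3.99 kb of exon, and with the length offset described above they no longer passed, the list for attachment gave 3 higher and 4 lower, and the dystrophin list gave 2 higher.

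Among 11 genes of filament assembly and turnover, 2 were higher and 4 lower. *jbug*, a filamin-type protein, and the formin *Fhos* rose by 0.60 and 0.56 (adjusted p of 0.00012 and 0.00011). The small heat shock protein *l(2)efl* was at 114, 97.0 and 96.1 CPM in mutants and 170, 183 and 212 CPM in controls (log2 fold change of -0.88 with an SE of 0.099, adjusted p = 0.00012). *cpa*, a subunit of the protein that caps actin filaments, fell by 0.29 (adjusted p = 0.0058) and the filamin *cher* by 0.25 (adjusted p = 0.0061). *Lasp*, a partner of actin at the Z-disc, was listed at 0 in every library. Whether its RNA was absent or its read pairs were not assigned to it was not tested.

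Of the myogenic regulators other than *Mef2*, 10 of 11 did not pass, 0 were higher by edgeR, DESeq2 or limma-voom, and 2 were higher at an unadjusted p under 0.05 in edgeR. With the length offset 3 were lower, among them *bru1* at -0.40 and *hth* at -0.24 (adjusted p of 0.0038 and 0.022). The gene called without it was *lmd*, a transcription factor of fusing myoblasts in the embryo, at 2.96, 3.20 and 1.64 CPM in mutants and 6.99, 5.66 and 11.8 CPM in controls, a log2 fold change of -1.65 with an SE of 0.36 (adjusted p = 0.0098). Control 3 was the highest and mutant 3 the lowest, and the ranges did not overlap. Of 7 genes for myoblast fusion, 3 were higher, the adhesion receptors *rst* and *sns* by 0.76 and 0.45 and *mbc* by 0.57 (adjusted p of 8.6e-05, 0.0046 and 0.00021), and *blow* fell by 0.45 (adjusted p = 0.040), a call kept in 6 of 14 alternatives. The call of *sns* was lost with the length offset. These genes also act in other tissues of the larva, which whole-animal counts do not separate.

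Actin and myosin genes of other cells served as a comparison, and they too moved both ways, with 2 higher and 3 lower of 9. The cytoplasmic actin *Act42A* fell by 0.38 (adjusted p = 0.0013), *tsr*, which encodes cofilin, by 0.41 (adjusted p = 0.00041) and *chic*, which encodes profilin, by 0.17 (adjusted p = 0.026). *jar*, a myosin VI, rose by 0.43 (adjusted p = 0.00077) and the light chain *Mlc-c* by 0.24 (adjusted p = 0.010). The call of *tsr* was lost with the length offset. The median log2 fold change of this list was -0.17, beside -0.12 for the sarcomere genes, but these genes are short, with a median of 1.73 kb of exon, and with the length offset the medians were -0.044 and -0.198.

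**Figure D5:**
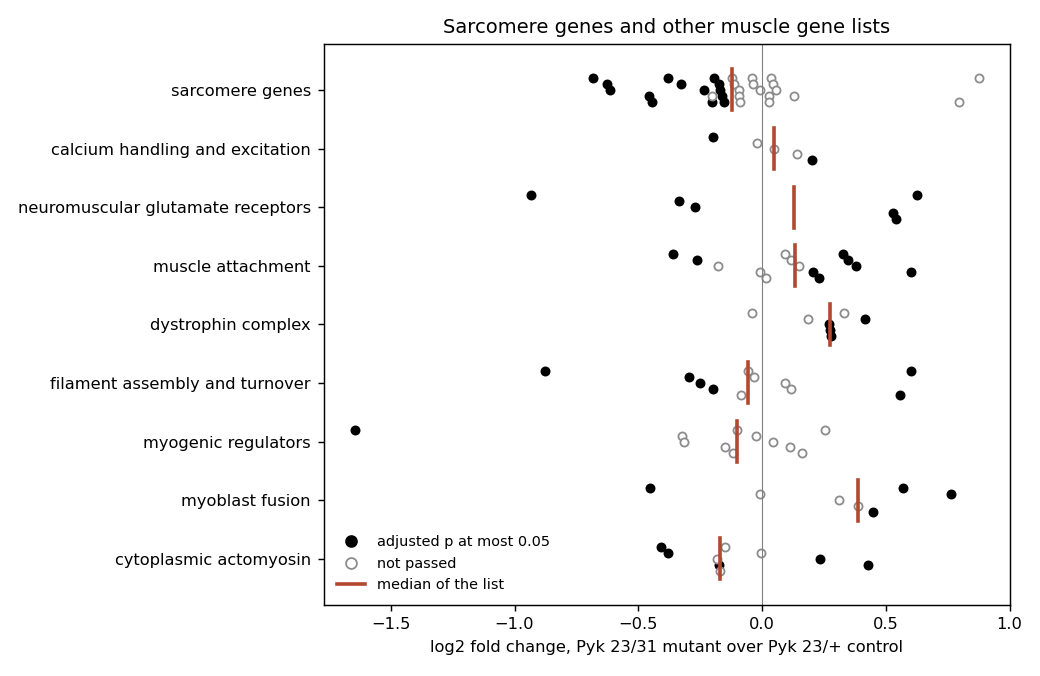
Log2 fold change, mutants over controls (x axis), of each gene tested in the sarcomere list (top row) and in 8 other lists (rows); black points passed an adjusted p of 0.05, open points did not, and red bars are list medians. The sarcomere genes have 14 black points, all below 0, while every other list with more than 1 black point, apart from the dystrophin complex, has black points on both sides of 0.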

How the data were processed

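For each of the 6 libraries the authors deposited the counts of read pairs by gene, raw and without normalization, in the layout that STAR writes. STAR and BDGP6 are named in the submitters' processing notes (version numbers: not given in the sources used here), and the methods of the study describe its own tables by another route, Kallisto with tximport and DESeq2. The counts used are those of the strand that TruSeq Stranded mRNA kits report, and 0 other columns of per-sample values were left unused. Genes with at least 12 counts over the 6 libraries were fitted together with edgeR 4.0.16 in R 4.3.3 (TMM, robust quasi-likelihood test, Benjamini-Hochberg over all genes tested), calling genes whose adjusted p was 0.05 or less, and beside them those that were also 2-fold apart. SE is the size of the log2 fold change divided by the root of the F statistic. RPKM is CPM per kilobase of the union of exons in BDGP6.54, whose places are given. *Unc-89* was matched through a RefSeq synonym. The code was tested on simulated data.

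Depth was 11249487 to 16029304 assigned pairs per library. TMM factors were 1.01 to 1.03 in mutants and 0.973 to 0.989 in controls, so the scaling itself differed by genotype. Every pair of libraries differed by more than sampling error (a chi-square of at least 3.51 per degree of freedom). By this measure control 3 was 15.4 and 15.5 from controls 1 and 2. It was nearer to the mutants, at 56.9 to 63.4, than controls 1 and 2 were, at 88.4 to 97.1. Samples were grouped by their labels. The 34 members and all lists were chosen with earlier results of these data known. Values per library are given for the 4 actins, the 5 troponin C genes, *Mef2*, *Pyk* and the called members with the smallest p, up to 12, and from each other list for up to 3 genes per direction with the smallest p; values per library of further genes were added after they had been seen. *Ca-beta*, *unc-45*, *hbs*, *zip* and *Stac* were not matched and are not analysed here, and promoter and protein sequences were not analysed here. Alternatives were library totals as scaling, DESeq2 1.42.0, limma-voom (limma 3.58.1), edgeR's own filter, no filter, unstranded counts, leaving out each library or the third of both genotypes, a replicate block and an offset for exon length.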

Additional observations from a re-analysis of the deposited data

How the results depend on the processing

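Of the 14 members called lower, 8 passed in all 14 alternatives other than the length offset: *Mlp60A*, *Act87E*, *TpnC73F*, *Mp20*, *Mlp84B*, *TpnC47D*, *Tm1* and *Tm2*. With library totals as scaling, 8 members were lower and 1 higher, and the median of the members was -0.064, against 0.072 for all genes tested. DESeq2 gave 10 lower, limma-voom 14, edgeR's own filter 13, no filter 12 and unstranded counts 13, each with 0 higher. Leaving out 1 library gave 8 to 12 lower and a median of -0.17 to -0.096, with 8 without control 2, 9 without control 1 and 9 without mutant 2; for the genes of the other lists it gave 12 (without control 2) to 22 higher and 9 (without mutant 2) to 17 lower. Without replicate 3 of both genotypes the median was -0.19, and with the length offset -0.198, against -0.0065 and 0.072 for all genes tested.

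Directions turned only for genes that did not pass, apart from *Mlc1* with the length offset, at 0.033. With library totals *Mhc* was at 0.050, *up* at 0.016 and *Argk1* at 0.019, and *Mhc* was at 0.012 in DESeq2 and 0.0063 with edgeR's own filter. Leaving out libraries moved *Mhc* over -0.065 to 0.050, *up* over -0.078 to 0.012, *Prm* over -0.014 to 0.074, *Msp300* over -0.062 to 0.076, *Unc-89* over -0.0034 to 0.079, *Mef2* over -0.028 to 0.095 and *Argk1* over -0.11 to 0.021. With the length offset, *up* was at 0.0035, *TpnC25D* at 0.030, *sls* at -0.20, *Prm* at -0.16, *Msp300* at -0.22, *Unc-89* at -0.24, *Mef2* at -0.22 and *Strn-Mlck* at -0.14. The causes were not tested.

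The genotypes share replicate numbers in the labels, but deviations of same-numbered libraries were not positively correlated (r of -0.36, -0.099 and -0.30 over 5000 genes). The main fit therefore did not pair the samples. With 3 libraries per genotype, these correlations cannot show whether same-numbered samples were prepared together. A fit with the replicate number as a block gave 12 lower and 0 higher. Depth limits *TpnC4*, *Zasp67*, *fln*, *Act88F*, *Act79B* and *TpnC41C*, which had at most 118 counts each over 6 libraries.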
